A study of Mus musculus with 9 samples.

Results

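The gamma crystallin genes of the mouse, Cryga, Crygb, Crygc, Crygd, Cryge, Crygf, Crygn and Crygs, were followed in RNA-Seq of whole newborn lenses. They were taken by gene symbol and made up 8 of the 47729 genes in each deposited table. All 8 passed the filter on low counts that left 15557 genes for testing. The series compared 3 lines with 3 pools each, and each pool held 6 lenses from 3 mice collected at P0, the day of birth. The control group was wild-type FVB/N, an inbred albino strain. The other groups were hemizygous for either the P0-3.9GFPCre or the Le-Cre transgene on that FVB/N background. Both transgenes express the CRE recombinase and GFP from regulatory DNA of Pax6 that is active in the lens-forming surface ectoderm, and no target of CRE was described in these mice, so the comparisons concern the transgenes themselves. The Le-Cre mice in use derive from 1 founder line, and pooling means that single mice cannot be told apart. Total expected counts per pool ranged from 20670968 to 28098059.

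Gamma crystallins are small, soluble structural proteins that pack at very high concentration in the lens fiber cell and give the lens its refractive index. Each folds into Greek key motifs arranged in a pair of domains. Cryga to Crygf are near copies of one another, are switched on as epithelial cells become fibers, and are controlled by factors such as Maf, Sox1, Sox2, Prox1 and Pax6. Crygs is a more distant relative that is best known from fibers formed after birth, and Crygn is a relative whose gene structure lies between the beta and gamma families. Mutations in the human genes CRYGC, CRYGD and CRYGS cause inherited cataract.

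The label of whole lens was borne out by marker genes. The lens fiber markers Cryaa, Mip, Lim2, Bfsp1, Bfsp2 and Gja3 summed to between 131900 and 159700 TPM (a length-corrected share of all transcripts) in every pool. Nearly all of this sum was the crystallin Cryaa, at 123600 to 151100 TPM. The other fiber markers lay between 173.6 TPM for Bfsp2 and 4658 TPM for Mip. The 4 lens epithelium markers summed to between 105.9 and 137.9 TPM. The 5 retinal markers reached at most 5.98 TPM in sum, the 4 pigment epithelium markers at most 7.17 TPM and the 3 macrophage markers at most 1.04 TPM. The corneal keratins Krt12 and Krt14 were listed at 0 in all 9 pools, and Krt5 reached at most 0.04 TPM. Blood markers summed to between 85.15 and 262.5 TPM and vessel markers to between 14.71 and 34.63 TPM.

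Of the genes, 6 lie on chromosome 1 (GENCODE M21, GRCm38). Of these, 5 stand side by side on the minus strand, each with 3 exons: Cryge at chr1:65048554-65051149, Crygd at chr1:65061872-65063452, Crygc at chr1:65071525-65073689, Crygb at chr1:65080219-65082288 and Cryga at chr1:65100389-65103373, which together span 54.8 kb. Crygf lies 823 kb away on the plus strand at chr1:65926520-65928307. Crygn, with 4 exons, is on chromosome 5 at chr5:24751003-24758008, and Crygs, with 3 exons, is on chromosome 16 at chr16:22805203-22811577, both on the minus strand. The 100 bases before the RefSeq start site (GRCm38.p6) are shown for the 5 chromosome 1 genes whose window is not exon in GENCODE M21 apart from at most 12 bases, because like letters recur in front of their starts. Capitals mark TATATA and either CTTTTGT or CTTTGT, read 5′ to 3′ on the gene's own strand.
Cryga: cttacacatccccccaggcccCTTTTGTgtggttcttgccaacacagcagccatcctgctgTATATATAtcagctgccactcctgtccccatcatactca
Crygb: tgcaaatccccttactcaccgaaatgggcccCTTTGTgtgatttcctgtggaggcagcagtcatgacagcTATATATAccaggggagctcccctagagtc
Crygd: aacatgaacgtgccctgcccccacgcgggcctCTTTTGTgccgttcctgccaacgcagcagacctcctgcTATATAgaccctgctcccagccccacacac
Cryge: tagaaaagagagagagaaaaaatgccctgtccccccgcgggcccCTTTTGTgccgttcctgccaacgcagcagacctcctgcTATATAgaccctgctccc
Crygf: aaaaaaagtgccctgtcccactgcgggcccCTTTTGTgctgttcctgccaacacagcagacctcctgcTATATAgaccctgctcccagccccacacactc
The windows are chr1:65103364-65103463 for Cryga, chr1:65082291-65082390 for Crygb, chr1:65063441-65063540 for Crygd and chr1:65051164-65051263 for Cryge, all on the minus strand, and chr1:65926422-65926521 for Crygf on the plus strand. The corresponding windows of Crygc, Crygn and Crygs lie within a first exon of GENCODE M21, so only 30 bases around the TATA-like letters are shown for these, at chr1:65073543-65073572, chr5:24757859-24757888 and chr16:22811421-22811450, all on the minus strand.
Crygc: aaccctcctgcTATATAgaccagccactct
Crygn: cgccacagagTATATAccgggtctcgcagt
Crygs: atttgaactgccctcTATAAAtgtccctct
TATATA was present in 7 members and absent from Crygs, whose window held TATAAA instead. Over both strands, TATATA occurred in 2.19% and TATAAA in 5.56% of the 32851 windows of the same length in the RefSeq table. CTTTTGT, a string picked after the windows had been read, was present in 6 members, while Crygb had CTTTGT and Crygs had neither, and these strings occurred in 1.56% and 6.56% of all windows. TGCTGA, the core of a Maf half-site, was found in none of the 8 windows and in 6.95% of all windows. These are matches of letters and not measured binding sites. As cut at the RefSeq starts, the windows of Crygd and Crygf were the most alike of the 28 pairs, with 87.2% identical positions in a global alignment. The 7 pairs with Crygs lay between 38.0% and 49.5%. This ranking depends on where each start is set, since TATATA began at -30 in Crygd and -32 in Crygf but at -18 in Cryge. The offset window of Cryge matched that of Crygd at 70.5%, so the ranking does not show which promoter is closest to that of Crygd.

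The coding sequences show which copies can be told apart by short reads. Cryge and Crygf, the closest pair, were identical at 515 of 525 coding bases (98.1%), and Crygd matched Cryge at 91.6% and Crygf at 90.7%. Crygb and Crygc matched at 83.3% but held an unbroken identical run of 221 bases. All 15 pairs among Cryga to Crygf lay between 79.2% and 98.1%, whereas the 13 pairs with Crygn or Crygs lay between 55.02% and 59.93%. A 51-base stretch from the second exon of Cryge and Crygf, bases 32 to 82 of the coding sequence, shows reads with no letter that tells these genes apart. It lies at chr1:65050940-65050990 on the minus strand in Cryge and at chr1:65926670-65926720 on the plus strand in Crygf.
Cryge: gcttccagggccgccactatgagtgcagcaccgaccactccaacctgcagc
Crygf: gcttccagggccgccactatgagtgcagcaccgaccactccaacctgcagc
Bases 418 to 468 of the coding sequence, in the third exon, hold 4 differences, in capitals, the most of any such stretch within 1 exon. This stretch lies at chr1:65048681-65048731 on the minus strand in Cryge and at chr1:65928136-65928186 on the plus strand in Crygf.
Cryge: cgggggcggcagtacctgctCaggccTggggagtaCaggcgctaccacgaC
Crygf: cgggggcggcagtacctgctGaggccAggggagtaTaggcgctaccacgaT
Of the 475 coding stretches of this length, 197 (41.5%) were identical between Cryge and Crygf.

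Over whole transcripts, 47.7% of the different 51-base sequences of Cryge also occurred in another gamma crystallin, compared with 31.6% for Crygf, 29.3% for Crygb, 22.1% for Crygc, 19.5% for Crygd and 4.23% for Cryga. Crygn and Crygs shared none with any gene in the table. Cryga also shared 42.3% of its sequences with the gene Gm28845, which was given between 3.36 and 27.45 expected counts per pool. RSEM, the program the authors used to divide shared reads, reports a posterior standard deviation (SD) of each count. As a percent of the count this SD was highest for Crygf, at 0.181% to 0.282% over the 9 pools, and it was 0 for Crygn and Crygs. For Cryge, which shares the largest part of its sequence, it was 0.056% to 0.0734% of a larger count. In counts the SD was highest for Cryge, at 567 to 676, beside 339 to 394 for Crygf. This SD does not cover differences between the FVB/N mice and the C57BL/6J reference.

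**Figure D1:**
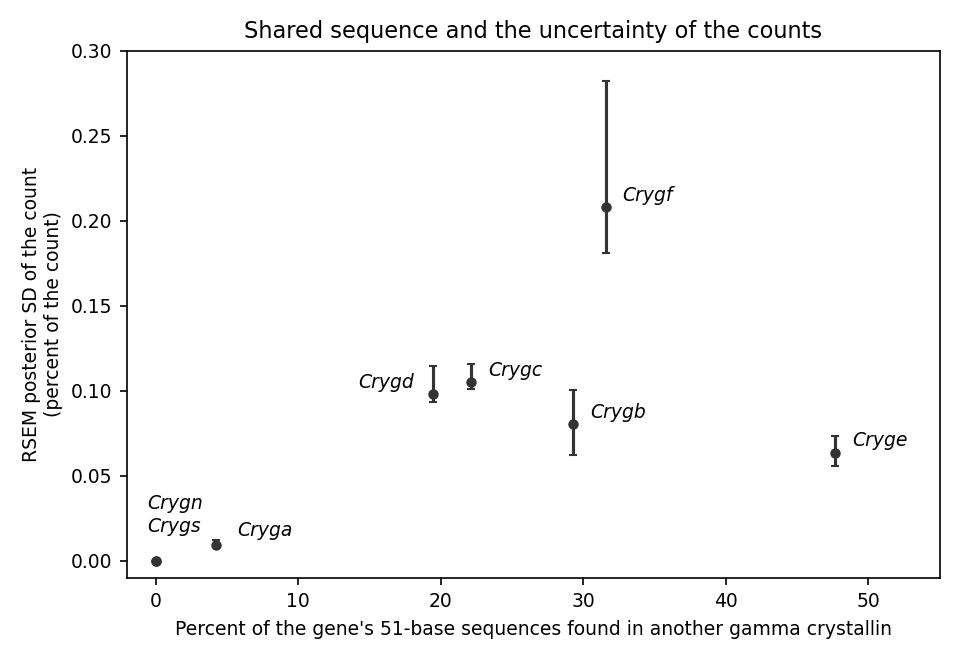
For each gene, the percent of its 51-base transcript sequences that also occur in another gamma crystallin (x axis) against the RSEM posterior SD of its count as a percent of the count (y axis), where points are medians and bars the lowest and highest of 9 pools. Crygn and Crygs lie at 0 on both axes. Crygf has the highest posterior SD as a percent of its count, while in counts the SD is highest for Cryge, which shares the most sequence.

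Gamma crystallin mRNA was a large part of the lens transcriptome. The 8 genes together held 27.5%, 27.7% and 31.0% of all TPM in the FVB/N pools, 28.5%, 25.5% and 27.1% in the P0-3.9GFPCre pools and 29.4%, 26.7% and 29.9% in the Le-Cre pools. The 3 ranges overlapped, and an exact permutation test over all ways to assign the 9 pools to 3 lines gave p = 0.439 (smallest possible p 0.00357). On the scale of expected counts, where short genes weigh less, the same genes held 13.6% to 17.0%. The 8 alpha and beta crystallins held 27.98% to 32.78% of TPM. Cryga to Crygf alone carried 96.7% to 97.6% of the gamma crystallin TPM.

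Ranked by mean TPM, the members stood in the same order in every pool. Cryga ranked 2nd among all genes by mean TPM, behind the alpha crystallin Cryaa. Its TPM was 99948, 99970 and 119290 in FVB/N, 108122, 87768 and 90170 in P0-3.9GFPCre, and 107408, 99715 and 110500 in Le-Cre. Cryge had 73620, 73000 and 77351 TPM in FVB/N, 73350, 71341 and 70314 in P0-3.9GFPCre, and 76836, 68849 and 76304 in Le-Cre. Cryga thus exceeded Cryge 1.39-fold (mean log2 ratio 0.48 ± 0.10, SD, n = 9 pools). Crygd, the third member, had 36069, 37163 and 42378 TPM in FVB/N, 39141, 34822 and 40481 in P0-3.9GFPCre, and 38794, 34638 and 39500 in Le-Cre. Crygb had 25553, 27102 and 31684 TPM in FVB/N, 25663, 22639 and 25682 in P0-3.9GFPCre, and 30636, 25169 and 28228 in Le-Cre. Cryge exceeded Crygd 1.93-fold and Crygd exceeded Crygb 1.42-fold.

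The lower members spanned a wider range. Crygc had 19193, 19576 and 17694 TPM in FVB/N, 18027, 20395 and 20451 in P0-3.9GFPCre, and 18279, 18125 and 20870 in Le-Cre. Crygf, the copy of Cryge that stands apart from the other chromosome 1 genes, had 12283, 13063 and 13710 TPM in FVB/N, 13585, 11232 and 15304 in P0-3.9GFPCre, and 13555, 12133 and 14331 in Le-Cre. As RSEM divided their shared reads, the 2 near copies differed in level, with 4.595 to 6.352 times as much Cryge as Crygf in each pool. This ratio was not checked on reads that tell the copies apart. Crygs had 6698, 4806 and 5355 TPM in FVB/N, 4968, 5049 and 6057 in P0-3.9GFPCre, and 6614, 6968 and 7592 in Le-Cre. These values use the deposited Crygs length of 708 bases, whereas GENCODE M21 gives 875, and the RefSeq start at 22811410 lies 167 bases inside the GENCODE M21 first exon. At the longer length Crygs would have 3833 to 6055 TPM, in the same place in the order. Crygn, the lowest member, had 1925, 2059 and 2180 TPM in FVB/N, 2026, 1815 and 2173 in P0-3.9GFPCre, and 2340, 1771 and 2049 in Le-Cre, and still ranked 32nd among all genes. Crygb exceeded Crygc 1.40-fold, Crygc exceeded Crygf 1.45-fold, Crygf exceeded Crygs 2.22-fold and Crygs exceeded Crygn 2.92-fold. All 7 neighboring pairs kept their order in 9 of 9 pools, which is a description, since the same pools set the order.

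**Figure D2:**
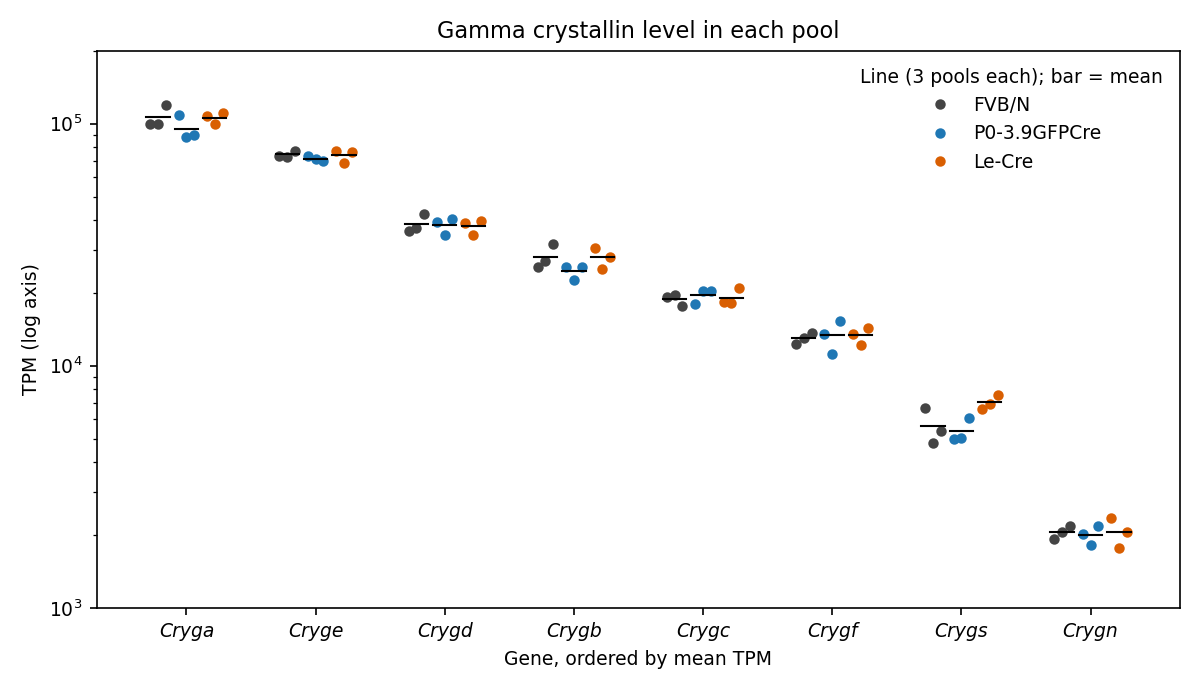
TPM of each gamma crystallin (y axis, log scale) in the 9 pools, with points colored by line and bars at the mean of 3 pools. The order from Cryga at about 102543 TPM to Crygn at about 2037 TPM (means of 9 pools) holds in every line, and the Crygs points of Le-Cre lie above those of P0-3.9GFPCre.

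The make-up of the family varied little between pools. Cryga supplied 33.3% to 38.5% of the gamma crystallin TPM, Cryge 24.98% to 27.97%, Crygd 12.96% to 14.96% and Crygb 8.88% to 10.4%. Crygc supplied 5.71% to 8.00%, Crygf 4.404% to 5.65%, Crygs 1.73% to 2.61% and Crygn 0.662% to 0.803%. The largest coefficient of variation over the 9 pools was that of the Crygs share, at 16.5%, and the smallest was that of Cryge, at 3.28%. None of the 8 shares differed between lines after adjustment in the exact permutation test. The share with the lowest p was that of Crygd, which averaged 13.4% in FVB/N, 14.1% in P0-3.9GFPCre and 13.1% in Le-Cre (exact permutation p = 0.0214, adjusted p = 0.171 over 8 genes). For Crygs, the line means were 1.97%, 1.99% and 2.46% (exact permutation p = 0.175, adjusted p = 0.7).

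**Figure D3:**
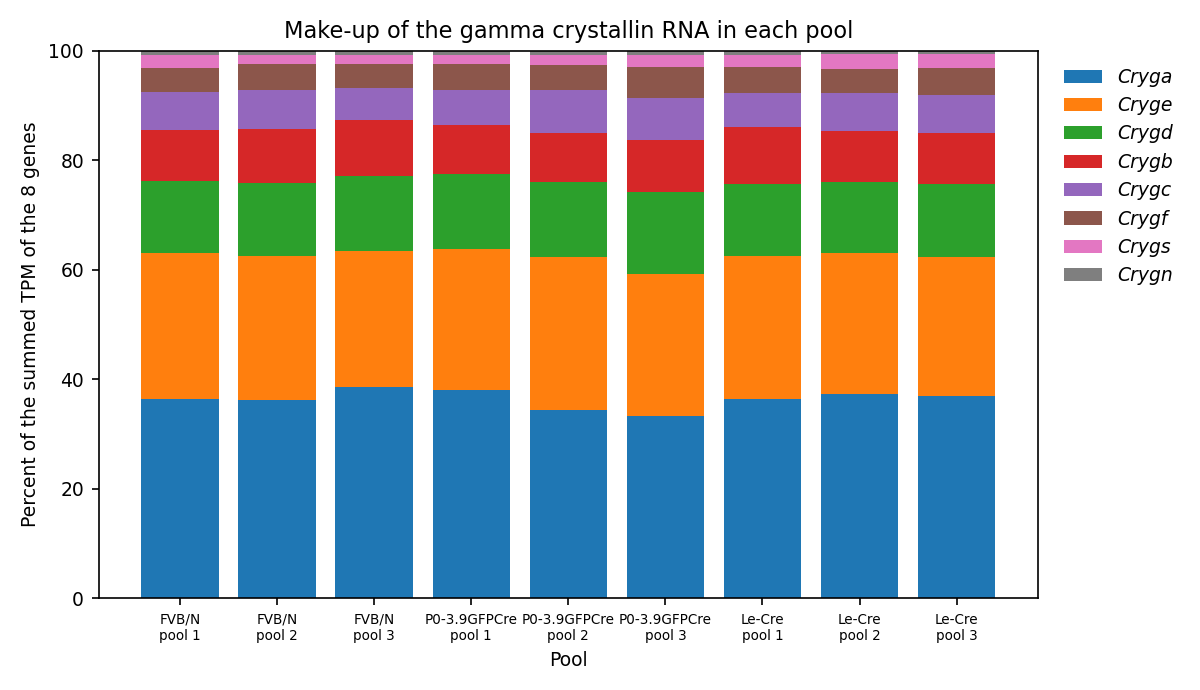
Percent of the summed TPM of the 8 gamma crystallins contributed by each gene (y axis, bars from 0) in the 9 pools (x axis). Cryga and Cryge form the largest blocks in every pool, and Crygs and Crygn the thin blocks at the top.

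The first comparison asked whether being hemizygous for the Le-Cre transgene changed gamma crystallin mRNA in newborn lenses. No member passed the study's cutoff (1.5-fold or more, adjusted p no higher than 0.05) in the edgeR quasi-likelihood test, 0 of 8 against a background of 0.0643% of all 15557 genes (10 genes). 1 member, Crygs, had an unadjusted p under 0.05, as did 7.94% of all genes, and DESeq2 also called 0 of the 8. Differences are given from here on as log2 fold changes of TMM-scaled CPM, counts corrected for library size and not for gene length, and p-values measure the spread between pools only. Cryga to Crygf lay between -0.07 for Crygd and 0.00 for Crygc and Crygf, and Crygn stood at -0.03. With the log2 summed CPM of Y-linked genes as a covariate (described with Crygs), these became -0.16 for Cryga and Crygc, -0.17 for Cryge, -0.26 for Crygb, -0.29 for Crygd, -0.31 for Crygf and -0.32 for Crygn, with adjusted p of 0.951 or more in edgeR. That covariate is partly confounded with line, so the parts of line and covariate cannot be told apart in this fit. In whole lenses, fewer fiber cells and less of a transcript per fiber cell cannot be told apart. Merged into 1 row, Cryga to Crygf had 146089, 144823 and 172269 CPM in FVB/N and 155705, 131624 and 163258 CPM in Le-Cre. The ranges overlapped, and the difference was -0.04 (95% interval -0.25 to 0.17, edgeR adjusted p = 0.956). It became 0.05 without FVB/N pool 3, the highest pool, and likewise without Le-Cre pool 2, the lowest, and -0.20 with the Y-linked covariate.

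The second comparison asked the same of P0-3.9GFPCre. No member passed the cutoff in edgeR (0 of 8, background 0% of 15557 genes) or in DESeq2, and 1 member, Crygb, had an unadjusted p under 0.05, compared with 6.81% of all genes. Of the 8 members, 7 had a log2 fold change below 0, as did 7777 of the 15557 genes tested. The median of the members was -0.12, beside 0.00 over all genes tested. In the lists described below, 10 of 12 other lens fiber genes, 7 of 12 transcription factors and 5 of 8 alpha and beta crystallins were also below 0. The signs of the members were the same under each other scaling of the libraries. Without FVB/N pool 3, Crygd and Crygf turned to 0.01 and 0.03 and Crygc to -0.01. Crygb had 14147, 14718 and 18296 CPM in FVB/N and 13271, 12167 and 13886 CPM in P0-3.9GFPCre. All 3 transgenic pools lay below all 3 control pools, with a log2 fold change of -0.26 (95% interval -0.52 to -0.003, edgeR adjusted p = 0.722), which shrank to -0.14 without FVB/N pool 3. Cryge, with 40561, 39451 and 44451 CPM in FVB/N and 37746, 38152 and 37835 CPM in P0-3.9GFPCre, also did not overlap, at -0.13 ± 0.09 (standard error, adjusted p = 0.814), and -0.08 without FVB/N pool 3. On the TPM scale, the values of both genes overlapped between these lines. How many of all genes tested do not overlap was not counted, so non-overlap here and below has no background and is only a description. For Cryga the log2 fold change was -0.23 ± 0.11 (adjusted p = 0.741) and the pools overlapped. Merged, Cryga to Crygf had 141972, 132141 and 140384 CPM in P0-3.9GFPCre, all below the FVB/N pools. As a share of TPM these lines overlapped, with 27.8% in P0-3.9GFPCre pool 1 and 26.7% in FVB/N pool 1. The merged difference in CPM was -0.16 (95% interval -0.37 to 0.05, edgeR adjusted p = 0.807), and -0.07 without FVB/N pool 3, which also took Cryga to -0.11. Other alternatives gave larger differences. Over all of them the merged difference ran from -0.24 to -0.07, that of Crygb from -0.37 to -0.14 and that of Cryga from -0.31 to -0.11.

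The third comparison set the transgenic lines against each other, and it shares pools with the other comparisons. No member passed the cutoff in edgeR (0 of 8, background 0% of 15557 genes) or in DESeq2. Crygs was again the 1 member with an unadjusted p under 0.05, compared with 7.88% of all genes. The median log2 fold change of the 8 members, Le-Cre minus P0-3.9GFPCre, was 0.08, beside -0.002 over all genes tested. Of the members, 7 were above 0, as were 7697 of the 15557 genes tested. In the lists, 7 of 12 other lens fiber genes, 4 of 12 transcription factors and 4 of 8 alpha and beta crystallins were above 0. Merged Cryga to Crygf differed by 0.12 (95% interval -0.09 to 0.33, adjusted p = 0.801), by 0.06 without Le-Cre pool 3, by 0.20 without Le-Cre pool 2 and by 0.04 with the Y-linked covariate.

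The precision of these comparisons limits what could have been missed. Standard errors of the members' log2 fold changes were between 0.09 and 0.13. The fit without the Y-linked covariate gave 24 intervals at 95%, for 8 genes in 3 comparisons. Of these, 23 lay within a 1.5-fold change in either direction. The exception was Crygs in Le-Cre against P0-3.9GFPCre, and the Crygs interval in Le-Cre against FVB/N ended at 1.4995-fold. With the covariate, Crygf and Crygn in Le-Cre against FVB/N moved to -0.31 and -0.32, below the lower ends of these intervals (-0.27 and -0.30). The other members stayed within theirs in that comparison.

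**Figure D4:**
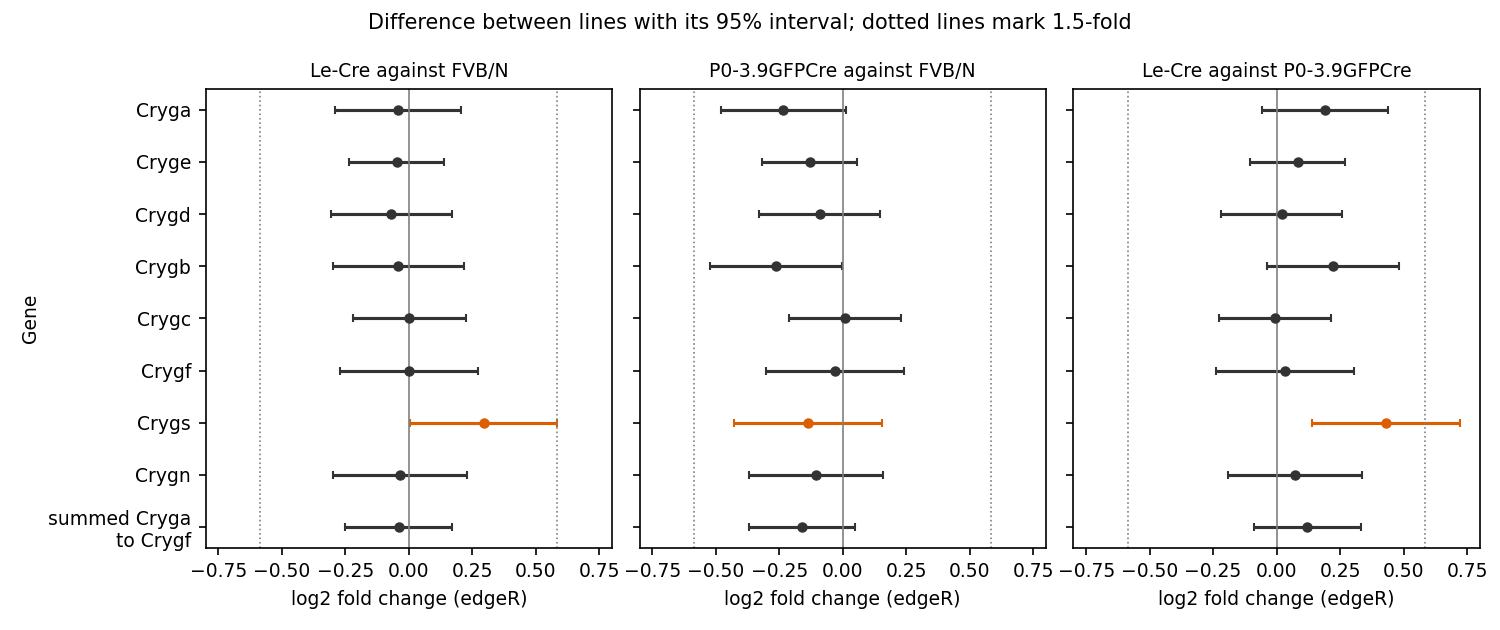
log2 fold change of each gamma crystallin and of merged Cryga to Crygf (x axis) in the 3 comparisons, with 95% intervals from edgeR and dotted lines at 1.5-fold. The intervals cross 0 except those of Crygs in both Le-Cre comparisons and of Crygb in P0-3.9GFPCre against FVB/N, and no adjusted p passed the cutoff.

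Crygs had the widest spread between pools. It had 4178, 2941 and 3484 CPM in FVB/N, 2894, 3057 and 3690 CPM in P0-3.9GFPCre and 4093, 4039 and 4867 CPM in Le-Cre. All Le-Cre pools lay above all P0-3.9GFPCre pools, while FVB/N spanned both, with its pool 1 above the lower Le-Cre pools. The log2 fold change was 0.43 (1.35-fold, 95% interval 0.14 to 0.72, edgeR adjusted p = 0.463) for Le-Cre against P0-3.9GFPCre. Against FVB/N it was 0.29 for Le-Cre (1.23-fold, 95% interval 0.003 to 0.58, edgeR adjusted p = 0.628) and -0.14 for P0-3.9GFPCre (95% interval -0.43 to 0.15, adjusted p = 0.874). With no filter on low counts, the adjusted p for Le-Cre against P0-3.9GFPCre was 0.00442, at a fold change still under 1.5, and over all alternatives it ran from 0.00442 to 0.837. Leaving out each pool gave 0.34 to 0.54 for that comparison and 0.18 to 0.43 for Le-Cre against FVB/N, the latter lowest without FVB/N pool 2 and highest without FVB/N pool 1. Crygs made up 2.32%, 2.69% and 2.62% of the TPM of Cryga to Crygf in Le-Cre, compared with 2.51%, 1.78% and 1.77% in FVB/N and 1.79%, 2.03% and 2.31% in P0-3.9GFPCre. The study placed the Le-Cre transgene on chromosome 16, which also holds Crygs. Whether the site of the transgene bears on the Crygs level was not tested.

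The pools also differed in other measures. The summed CPM of Y-linked genes (Uty, Kdm5d, Eif2s3y and Ddx3y) was 130, 193 and 121 CPM in FVB/N, 56.2, 135 and 1.67 CPM in P0-3.9GFPCre and 1.53, 74.2 and 0.619 CPM in Le-Cre, which marks pools with different shares of male lenses. With the log2 of this sum as a covariate, the Crygs log2 fold change was 0.08 for Le-Cre against FVB/N, 0.33 for Le-Cre against P0-3.9GFPCre and -0.25 for P0-3.9GFPCre against FVB/N (edgeR adjusted p = 0.990, 0.691 and 0.811). The 4 lens epithelium markers (Foxe3, Cdh1, Gja1 and Pdgfra), all above 0, summed to 129.6 to 137.9 TPM in FVB/N, 115.3 to 132.5 TPM in P0-3.9GFPCre and 105.9 to 123.1 TPM in Le-Cre. Their part in the Crygs difference was not tested.

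Ratios between members varied most where Crygs was 1 of the pair. The SD over 9 pools of the log2 TPM ratio was 0.07 to 0.21 for the 15 pairs among Cryga to Crygf (median 0.12) and 0.08 to 0.17 for the 6 pairs of Crygn with these genes (median 0.10). For the 7 pairs with Crygs it was 0.25 to 0.28 (median 0.26), above each of the other 21 pairs. The tightest ratio was that of Crygd to Crygf, 2.88 with an SD of 0.07 on the log2 scale. Crygn, on another chromosome and with no shared reads, kept a ratio to Crygd of 18.7 with an SD of 0.08. Within the chromosome 1 genes the loosest pairs were those of Crygc with Cryga and Crygb, each at an SD of 0.21. Cryga, Crygb, Crygd and Cryge had their highest CPM in FVB/N pool 3, while Crygc was highest in Le-Cre pool 3. From the lowest to the highest pool, the CPM of Crygs varied 1.68-fold and that of Cryge 1.26-fold, with the other members between these. These ratios are descriptions over 9 pools, and genes quantified from the same libraries share depth and composition.

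**Figure D5:**
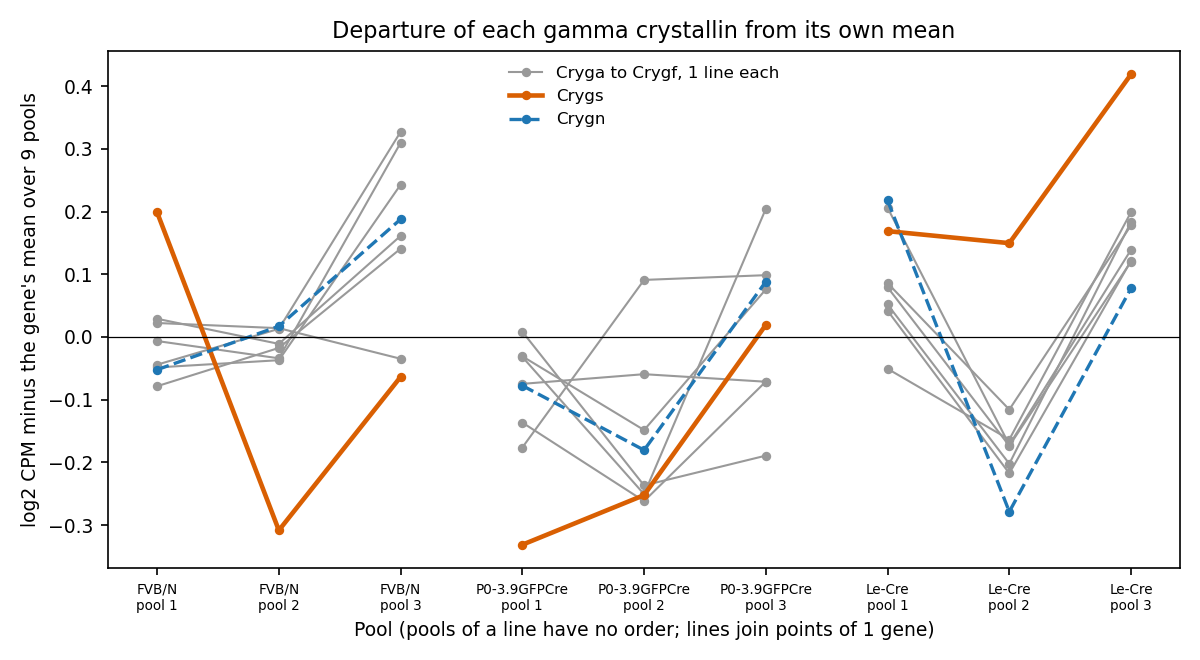
log2 CPM of each gamma crystallin minus its own mean over the 9 pools (y axis), by pool (x axis). In FVB/N pool 2, Crygs (orange) lies below Cryga to Crygf (gray) and Crygn (dashed), and in Le-Cre pool 2 it lies above all of them.

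Crygc was the member whose deposited transcript length varied most. RSEM gives the mean length of a gene's transcripts weighted by their estimated abundance. For Crygc this was 659, 655 and 659 bases in FVB/N, 655, 669 and 667 bases in P0-3.9GFPCre and 663, 660 and 666 bases in Le-Cre. GENCODE M21 holds a Crygc transcript of 783 bases and another of 612 bases, which differ mainly in their first exon (193 and 25 bases, with the same inner end). If the authors' annotation had these lengths, the shorter one made up 66.4% to 74.7% of Crygc transcripts. The FVB/N lengths were all below the Le-Cre lengths, by little more than 1 base at the nearest, while P0-3.9GFPCre overlapped both, and these differences were not tested. For Cryga, Crygb, Cryge, Crygf, Crygn and Crygs the deposited length stayed within 1 base over all pools, and for Crygd it ran from 606 to 609 bases.

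Genes that work beside the gamma crystallins were examined as lists. Over all genes tested with edgeR, 7.94%, 6.81% and 7.88% had an unadjusted p under 0.05 in the 3 comparisons. None of the 8 alpha and beta crystallins, the chaperones and partner structural proteins of the fiber cell, passed the cutoff in any comparison (edgeR, and with unadjusted p under 0.05 there were 1, 0 and 0). Their median log2 fold change in Le-Cre against FVB/N was -0.03. The largest differences there were 0.27 ± 0.21 for Crybb2 (standard error, adjusted p = 0.816), -0.19 ± 0.08 for Crybb3 (adjusted p = 0.591) and 0.09 ± 0.11 for Cryab (adjusted p = 0.896). None of 12 transcription factors that act on gamma crystallin or lens fiber genes passed the cutoff (unadjusted p under 0.05 for 0, 2 and 1 in the 3 comparisons). For Maf, an activator of crystallin promoters, the log2 fold change was -0.16 ± 0.09 in Le-Cre against FVB/N (adjusted p = 0.729) and -0.24 ± 0.09 in P0-3.9GFPCre against FVB/N (adjusted p = 0.662). For the retinoic acid receptor Rarb it was -0.11 ± 0.10, and for Sox1, which is needed for gamma crystallin expression, -0.09 ± 0.08, both in Le-Cre against FVB/N (adjusted p = 0.839 and 0.850).

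None of 12 other lens fiber genes passed the cutoff (unadjusted p under 0.05 for 3, 3 and 2 in the 3 comparisons). These are 25%, 25% and 16.7% of the list, beside 7.94%, 6.81% and 7.88% of all genes tested. Dnase2b, the nuclease that degrades fiber cell DNA, had -0.37 ± 0.11 in Le-Cre (adjusted p = 0.356) and -0.45 ± 0.11 in P0-3.9GFPCre (adjusted p = 0.590), both against FVB/N, with all transgenic pools below the control pools. Cdkn1c, a cyclin-dependent kinase inhibitor of cells leaving the cycle, had -0.24 ± 0.07 in Le-Cre against FVB/N (adjusted p = 0.439). Lgsn, which encodes the fiber protein lengsin, had the largest difference in that comparison, -2.89 ± 1.07 (adjusted p = 0.540), but had only 0.11 to 3.53 TPM in FVB/N and 0.1 to 0.23 TPM in Le-Cre, which overlapped.

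Outside the crystallins, the 5 genes whose log2 CPM followed merged Cryga to Crygf most closely over the 9 pools, among 7632 genes with a mean of at least 10 CPM, were D030056L22Rik, Gm561, Pithd1, B630005N14Rik and Uqcrq (Pearson r between 0.938 and 0.950). For Crygs they were Mlx, Dtymk, Chn2, Cers6 and Sec13 (r between 0.921 and 0.939). The 2 sets of 5 shared no gene. These values describe 9 points that share depth and composition, after a search of all 7632 genes.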

How the data were processed

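RNA from 9 pools of newborn lenses (3 per line) was converted to unstranded polyA libraries and sequenced as single-end reads. The authors trimmed reads with Trimmomatic 0.36, aligned them with GSNAP to GRCm38 and quantified genes with RSEM 1.3.0, per the labels and the study's methods. The annotation release is not given in the sources used here. The deposited expected counts, TPM, transcript lengths and posterior SDs are RSEM's. Reads shared by near copies were divided by RSEM, not discarded. Expected counts were rounded and tested with edgeR 4.0.16 (TMM, filterByExpr, quasi-likelihood test, 1 coefficient per line, Benjamini-Hochberg over 15557 genes) in R 4.3.3. DESeq2 1.42.0, as an alternative, was run in the same design, and the scripts were tested on simulated data. Shares were compared with exact permutation tests, and folds between neighboring members used a pseudocount of 0.1 TPM. The planned test of the order of the members is not given, because the same pools set the order. Depth was 20670968 to 28098059 expected counts per pool, and the RSEM posterior SD was at most 0.282% of any member's count. Members were matched by symbol, and 51-base sharing was counted on GENCODE M21 transcripts (mean read length from the deposited lengths, 50.8 to 50.9 bases). Promoters are RefSeq's, and all 8 members matched. Named genes were the members, the up to 3 listed genes with the largest change in Le-Cre against FVB/N per list, and the 5 genes most correlated with merged Cryga to Crygf and with Crygs. The members and lists were chosen with earlier results of these data known.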

Additional observations from a re-analysis of the deposited data

How the results depend on the processing

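No gamma crystallin was called in any of 57 alternative counts, and of 477 alternative log2 fold changes 431 kept their direction and 46 changed it, all of them uncalled. All 7 steps of the order held under each of its alternatives, including the Crygs length of GENCODE M21, chosen after seeing the data. These alternatives reuse the pools that set the order and keep RSEM's division of shared reads, so they do not test it. No share passed the test as a share of expected counts or without each pool. Without each pool in turn, Le-Cre against FVB/N gave -0.11 to 0.077 for Cryga, -0.12 to 0.085 for Crygb, -0.11 to 0.082 for Crygc, -0.14 to 0.035 for Crygd, -0.10 to 0.041 for Cryge, -0.089 to 0.10 for Crygf, -0.14 to 0.098 for Crygn and -0.10 to 0.047 for merged Cryga to Crygf. P0-3.9GFPCre against FVB/N gave -0.037 to 0.095 for Crygc, -0.15 to 0.011 for Crygd, -0.15 to 0.077 for Crygf and -0.25 to 0.0012 for Crygs. Le-Cre against P0-3.9GFPCre gave -0.12 to 0.070 for Crygc, -0.051 to 0.11 for Crygd, -0.072 to 0.16 for Crygf and -0.036 to 0.20 for Crygn. In Le-Cre against FVB/N, Crygf and Crygc became -0.0015 and -0.0010 with no filter on low counts and -0.0058 and -0.0045 with the replicate block, and Crygn became 0.00014 with scaling on counts outside crystallins. With the Y-linked covariate, the members whose direction changed were Crygf, Crygc, Crygd and Crygn. Le-Cre against FVB/N gave -0.31 for Crygf and -0.16 for Crygc, P0-3.9GFPCre against FVB/N gave -0.070 for Crygc, and Le-Cre against P0-3.9GFPCre gave -0.11 for Crygf, -0.067 for Crygn and -0.088 for Crygd. The cause was not tested. The replicate block called 0 members in each comparison, as did the fit without it. Pools with the same number correlated at -0.10 to 0.12 once line means were removed, and pools with different numbers at -0.17 to 0.12. Not every pool correlated best with its own number. With 3 pools per line, these values cannot tell whether pools of the same number share a batch. With 3 pools per line, the Crygs interval in Le-Cre against P0-3.9GFPCre extends past 1.5-fold.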
